A study of Mus musculus with 12 samples.

Results

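The potassium channel genes of the mouse were taken as the genes whose symbol begins with Kcn, leaving out the antisense and overlapping transcripts whose symbols contain ot1, os or -as. The symbol rule found 94 genes among the 55335 genes in the deposited matrices, and 5 of the 99 symbols beginning with Kcn were left out (Kcnd3os, Kcnq1ot1, Kcnmb4os1, Kcnmb4os2 and Kcnab3os). The rule reads symbols only and uses no measured value, though it was set with earlier results of these data known. The nuclei came from forebrain of mice at postnatal day 1 (P1) and were profiled by combinatorial-indexing single-nucleus RNA-seq, which counts unique molecular identifiers (UMIs) from both spliced and unspliced RNA. There were 8 wild-type (WT) and 4 heterozygous (Het) libraries of the strain labelled MYT1L S710fsX, each library from 1 animal, and females gave WT 6 to WT 8 and Het 4. All animals shared the same age and region, and the gated nuclei below held cortical, striatal, meningeal and choroid plexus classes. Het animals carried 1 frameshift allele of Myt1l, which encodes a neuron-enriched zinc finger transcription factor, alongside 1 intact allele, in every cell of the body. Since a frameshift need not lower the RNA of the gene it hits, the Myt1l level does not check the genotype labels, and in excitatory nuclei Myt1l lay at 1450 to 1896 UMI counts scaled to 1000000 per library and class (CPM) in WT and 1901 to 1978 in Het.

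Potassium channels let potassium ions leave the cell along their gradient, which sets the resting potential, ends the action potential and spaces the next one. Voltage-gated pore subunits (Kcna, Kcnb, Kcnc, Kcnd, Kcnq and Kcnh) open on depolarization, calcium- or sodium-activated subunits (Kcnma, Kcnn, Kcnt) open with ions that enter during firing, inward rectifiers (Kcnj) and 2-pore-domain leak channels (Kcnk) hold the membrane near rest, and modifier subunits (Kcnf, Kcng, Kcns, Kcnv) and auxiliary proteins (Kcnab, Kcnip, Kcne, Kcnmb, Kcnrg) change the gating or trafficking of the pore subunits. In glia, the inward rectifier Kcnj10 is known for taking up potassium released by neurons, and in fast-firing interneurons the Kcnc family is known for rapid repolarization.

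By these groups the 94 genes comprised 30 voltage-gated pore subunits, 17 auxiliary proteins, 15 inward rectifiers, 14 leak channels, 10 modifiers and 8 calcium- or sodium-activated subunits. Kcnu1 was placed in the last group by its symbol, not by what opens it. What the pore-forming genes share at the sequence level is the selectivity filter, a short loop that strips water from potassium ions. A script searched each gene's coding sequence for the signature of 5 residues (threonine or serine, then valine, isoleucine, threonine or leucine, glycine, tyrosine, phenylalanine or leucine, glycine). It was found in all 30 voltage-gated, 10 modifier, 8 calcium- or sodium-activated, 15 inward rectifier and 14 leak channel genes, and in 0 of the 17 auxiliary genes. All 14 leak channel genes held 2 copies, the 2 pore domains of their name. The bases below are the filter of the genes that the comparisons turn on, 30 bases each on the coding strand, with the 15 bases of the signature in capitals (GENCODE M21 models on GRCm38, which is mm10).
Kcnc2: accatgactACCTTAGGTTACGGGgatatg
Kcns3: agtatgaccACAGTGGGCTATGGAgacacc
Kcnd2: accatgacaACACTGGGGTATGGCgacatg
Kcnh7: agtctaaccAGTGTAGGATTTGGAaatgtg
Kcna6: acaatgaccACGGTAGGTTATGGGgacatg
Kcnj10: tcccagaccACCATCGGCTATGGCttccgc
Kcnj13: acacaacttACAATTGGTTATGGTaccatg
Kcnt2: acattttctACTGTGGGCTTTGGGgatgtc
Kcnk2, the first copy: gttatcacaACCATAGGATTTGGAaacatc
Kcnk2, the second copy: actctgacgACCATTGGATTTGGAgactac

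The signatures lie in exons of their genes, at chr10:112456229-112456243 (plus strand) for Kcnc2, chr12:11091575-11091589 (minus) for Kcns3, chr2:62777343-62777357 (minus) for Kcnh7, chr6:126738647-126738661 (minus) for Kcna6, chr1:172369302-172369316 (plus) for Kcnj10, chr1:87389021-87389035 (minus) for Kcnj13 and chr1:140425278-140425292 (plus) for Kcnt2. In Kcnd2 the 15 bases are split by an intron and run from chr6:21217406-21714141 (plus). The first copy in Kcnk2 is split too (chr1:189258891-189295600, minus) and the second is not (chr1:189256581-189256595). An intron interrupted the signature in 3 of the 30 voltage-gated genes, which were Kcnd1, Kcnd2 and Kcnd3, and interrupted the first copy in all 14 leak channel genes.

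Each library held 15439429 to 40784144 UMIs. Of 126684 barcodes, 100035 passed the quality filter and 96307 remained after 3728 likely doublets among them were removed, and no barcode was shared between libraries. Nuclei were assigned to classes by lists of marker genes that hold no Kcn gene, and 53755 nuclei (55.8%) were gated to a class. A further 2994 met several lists without the lead needed and were not gated. The classes are named by their gate ("MGE-gated" for interneurons with markers of the medial ganglionic eminence, "CGE-gated" for those of the caudal one, "D1-gated" and "D2-gated" for the striatal projection neurons). In the class labelled microglia/macrophage the leading genes, Mrc1, F13a1 and Stab1, are macrophage genes. WT 4 held 12 D1-gated and 18 D2-gated nuclei and was left out of those classes, and mural, choroid plexus and microglia/macrophage values rest on 7, 4 and 10 libraries.

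Potassium channel transcripts were abundant and concentrated in a few long genes. The 94 genes gave 3281794 UMIs in kept nuclei, or 15290 ± 991 CPM (SD, n = 12 libraries). Kcnip4, an auxiliary calcium-binding protein of the Kcnd channels, gave 24.9% of these UMIs. The 5 genes with the most UMIs (Kcnip4, Kcnq5, Kcnh7, Kcnd2 and Kcnb2) gave 68.4%, and the 10 with the most gave 84.4%. At the other end, 17 genes had under 100 UMIs in all libraries together, although none had 0. Nuclear RNA holds introns, and CPM followed gene span. Over the 77 genes with 100 or more UMIs the Spearman correlation across genes was 0.778 with the span of the gene and 0.609 with its exonic length, as a description, since the genes share libraries and depth. Spans ran from 1.54 to 1135 kb with a median of 45.3 kb, and shares of UMIs and CPM are not corrected for span. Per kb of span, Kcnh7 (3.92 CPM per kb over all nuclei), Kcnq5 (3.53), Kcnip4 (3.38) and Kcnd2 (3.37) lay close together.

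Of the 15 classes, the mean summed level of the family was highest in Cajal-Retzius and lowest in endothelial nuclei. Cajal-Retzius-gated nuclei, from the early-born neurons of the cortical surface, had 30320 ± 3702 CPM (n = 12) in the 94 genes together. Upper-layer nuclei had 18760 ± 1167 CPM, deep-layer nuclei 17090 ± 1025 and MGE-gated interneurons 15610 ± 1188. Oligodendrocyte lineage nuclei, at 13390 ± 838 CPM, D1-gated nuclei, at 13070 ± 510, D2-gated nuclei, at 12750 ± 796, and CGE-gated nuclei, at 12450 ± 1301, had overlapping SDs. Astroglia had 6247 ± 597 CPM, fibroblasts 4270 ± 617 and endothelial nuclei 3987 ± 794, all below every neuronal class named here. The number of genes with a mean of at least 10 CPM varied less, from 29 in fibroblasts to 41 in D1-gated nuclei. By role, again not corrected for span, voltage-gated pore genes gave 55.2% of the Kcn UMIs over all nuclei, 80.1% in the oligodendrocyte lineage and 42.6% in fibroblasts. Leak channels gave 2.3% over all nuclei and 13.2% in fibroblasts. Single genes made up much of these shares. In the oligodendrocyte lineage Kcnd2 alone had 7542 of the 10740 CPM in voltage-gated genes, and in fibroblasts Kcnk2 had 470 of the 553 CPM in leak channels.

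**Figure D1:**
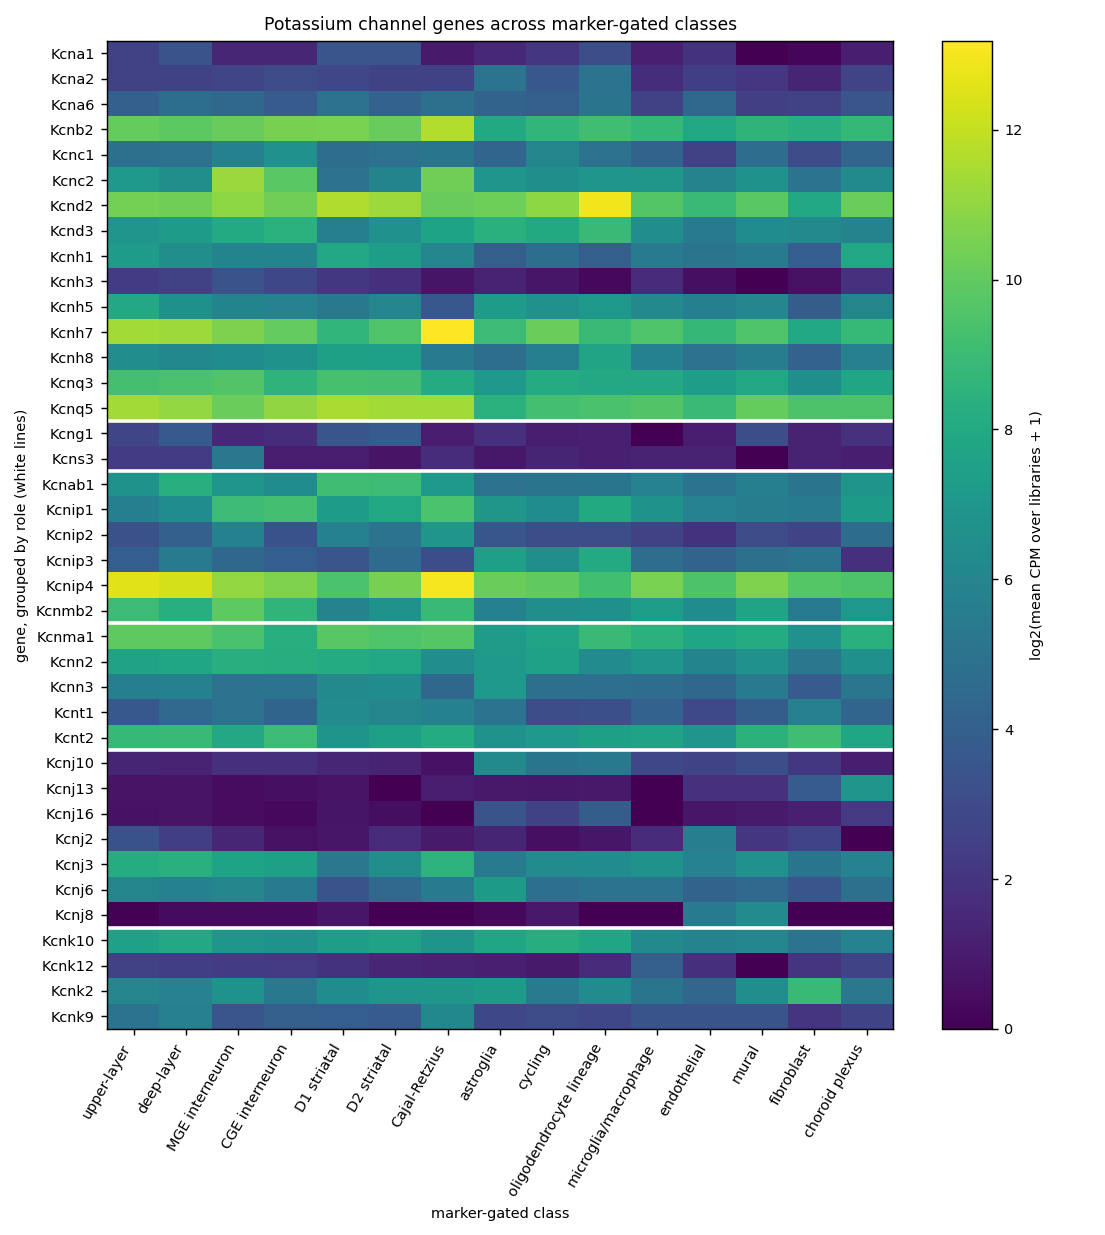
Mean level of 39 potassium channel genes (vertical axis, grouped by role) in 15 gated classes (horizontal axis), as log2 of mean CPM + 1 over libraries, where lighter cells are higher levels and white lines separate the roles. Kcnc2 and Kcns3 stand out in MGE-gated interneurons, Kcnd2 in the oligodendrocyte lineage, Kcnh7 in Cajal-Retzius nuclei, Kcnj10 in astroglia and Kcnj13 in choroid plexus. The oligodendrocyte lineage is next for Kcnj10, at 39.6 CPM against 78.5 in astroglia.

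Among the voltage-gated pore genes, Kcnc2, a fast repolarizing (Kv3-type) subunit, had the largest fold between interneurons and excitatory neurons of the 52 genes tested there. The gene spans chr10:112271121-112467024. In MGE-gated nuclei its level was 1650 CPM in the lowest library, 2498 at the median and 2751 in the highest, and in CGE-gated nuclei 653, 881 and 1150. In excitatory nuclei the 12 libraries ran from 63.4 to 142 CPM, with a median of 112. No excitatory value reached any interneuron value, and no CGE-gated value reached any MGE-gated value. Cajal-Retzius nuclei, which are not GABAergic, also held Kcnc2 at 1299 ± 199 CPM, and the lowest level was in D1-gated nuclei, at 29.0 ± 8.1 CPM. Over the 15 classes the genes with the most similar profile were Shisa6 (Pearson r = 0.869), March8 (0.834) and Tmem178 (0.821), out of 11402 genes compared. A correlation over classes of the same libraries is a description only.

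Kcnh7, an ether-a-go-go related (Erg-type) subunit, and Kcnb2, a delayed rectifier of the Kv2 type, were highest in Cajal-Retzius nuclei. Kcnh7 lay at 5373 CPM in the lowest library, 9739 at the median and 10930 in the highest there, and at 2345 to 2883 CPM in upper-layer nuclei, the next class. Kcnb2 lay at 3258 ± 273 CPM in Cajal-Retzius nuclei and 1488 ± 109 in D1-gated nuclei, without overlap. Kcnd2, an A-type (Kv4) subunit, was highest in the oligodendrocyte lineage, with 6323 CPM in the lowest library, 7449 at the median and 8653 in the highest, and every value was above the highest D1-gated one, 3363. Per kb of span, Kcnh7 in Cajal-Retzius nuclei (19.0 CPM per kb), Kcnd2 in the oligodendrocyte lineage (14.7) and Kcnc2 in MGE-gated interneurons (12.2) were on a similar scale. Kcnd3, another Kv4 gene, was also highest in the oligodendrocyte lineage (489 ± 77.7 CPM), but its range of 335 to 645 overlapped that of CGE-gated interneurons, which reached 411. The third Kv4 gene, Kcnd1, was sparse and lowest in the oligodendrocyte lineage, at 2.12 CPM, with its highest mean in Cajal-Retzius nuclei (10.4 ± 7.5).

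In the M-current genes Kcnq5 and Kcnq3 no class stood apart. Kcnq5 was highest in D1-gated nuclei (2972 ± 253 CPM) and next in upper-layer nuclei (2671 ± 348), and Kcnq3 in MGE-gated (785 ± 117) and deep-layer nuclei (684 ± 63.4). In both genes the ranges of both classes overlapped. Kcna1, a low-threshold Kv1 subunit, was sparse, with at most 10.0 ± 4.0 CPM in any class, and Kcna2 was highest in glia, level between the oligodendrocyte lineage (31.2 ± 10.3) and astroglia (31.1 ± 8.0) with a median of 4.90 CPM over the 15 classes. Kcnc1, the second Kv3 gene, was highest in CGE-gated nuclei at 102 ± 18.5 CPM, with cycling nuclei at 65.9 ± 28.7. The GABAergic markers summed to 1293 ± 441 CPM in cycling nuclei and 1425 ± 118 in MGE-gated nuclei. The part of GABAergic cells in the cycling values was not tested.

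The modifier Kcns3, which is silent alone and alters Kv2 channels, was concentrated in MGE-gated nuclei. Its level in MGE-gated nuclei was 29.2 CPM in the lowest library, 35.8 at the median and 58.1 in the highest. CGE-gated nuclei held 3 UMIs of Kcns3 in all, with 10 of 12 libraries at 0. The next class was deep-layer nuclei, at 2.29 to 7.38 CPM. Every MGE-gated library was above every library of the other 14 classes, among which the highest value was 8.86 CPM of Kcns3, in a Cajal-Retzius library.

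Summed over the 15 inward rectifiers, Cajal-Retzius (449 ± 149 CPM) and deep-layer nuclei (411 ± 25.9) were highest and astroglia lay at 287 ± 60.1, while the 14 leak channels were highest in fibroblasts (553 ± 103). Single genes differed from these sums. Kcnj10, the potassium uptake channel of astroglia, lay at 60.2 to 122 CPM in astroglia (median 76.1) and 0.388 to 3.47 in excitatory nuclei (median 1.20). Oligodendrocyte lineage nuclei (39.6 ± 15.6 CPM) and cycling nuclei (34.5 ± 20.2) held it too. The genes closest to it over the 15 classes were Etv4 (r = 0.960), Rfx4 (0.951) and Sall3 (0.949). Kcnj16, which pairs with Kcnj10, was sparse, at 14 ± 10.4 CPM in the oligodendrocyte lineage and 9.84 ± 3.07 in astroglia. Kcnj6 and Kcnj3, subunits of channels opened by G proteins, differed from each other. Kcnj6 was highest in astroglia (147 ± 49.3 CPM, against 65.0 ± 16.3 in upper-layer nuclei), and Kcnj3 in Cajal-Retzius (361 ± 134) and deep-layer nuclei (335 ± 25.2). Kcnk2, a mechanosensitive leak channel, lay at 301 to 687 CPM in fibroblasts (median 484), above every astroglia library (106 to 180). Kcnk9 was highest in Cajal-Retzius nuclei (69.1 ± 26.2 CPM) and Kcnk10 in cycling nuclei (298 ± 50.4), and both ranges overlapped those of deep-layer nuclei.

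Some genes had their highest level in a rare class. Kcnj13, an inward rectifier of epithelia, had 120 ± 38.3 CPM in choroid plexus nuclei (87.1 to 156 over 4 libraries, 54 UMIs in all) and 13.3 ± 4.8 CPM in fibroblasts. Kcnj8, the pore of the ATP-sensitive channel of vessels, had 81.2 ± 49.0 CPM in mural nuclei over 7 libraries, from 25 UMIs, and 41.5 ± 18.8 CPM in endothelial nuclei, from 103 UMIs, and these ranges overlapped. Abcc9, its sulphonylurea receptor subunit and no member of the family, lay at 1185 to 2130 CPM in mural and 304 to 656 in endothelial nuclei. Of 1190 endothelial-gated nuclei 589 met several marker lists, and the mural list came next, with a median of 1 marker. The part of mural RNA in the endothelial values of Kcnj8 and Abcc9 was not tested. Further genes, chosen after their values were seen, were Kcne2 in choroid plexus (72.9 ± 32.7 CPM, 39 UMIs), Kcnk13 in microglia/macrophage nuclei (145 ± 52.7, 97 UMIs), Kcnj5 in Cajal-Retzius nuclei (32.7 ± 13.7, 69 UMIs) and Kcnq1 in endothelial nuclei (116 ± 21.2, 299 UMIs). No source used here states whether the counting took strand into account, and Kcnq1 overlaps the antisense Kcnq1ot1, so that its value is uncertain. Relative to all kept nuclei, Kcnj13 was 66.7-fold higher in choroid plexus, Kcnj8 72.3-fold in mural nuclei and 45.3-fold in endothelial nuclei, Kcnq1 38.2-fold in endothelial nuclei, and Kcnj5 44.2-fold in Cajal-Retzius nuclei, each in every library. These folds are descriptions.

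**Figure D2:**
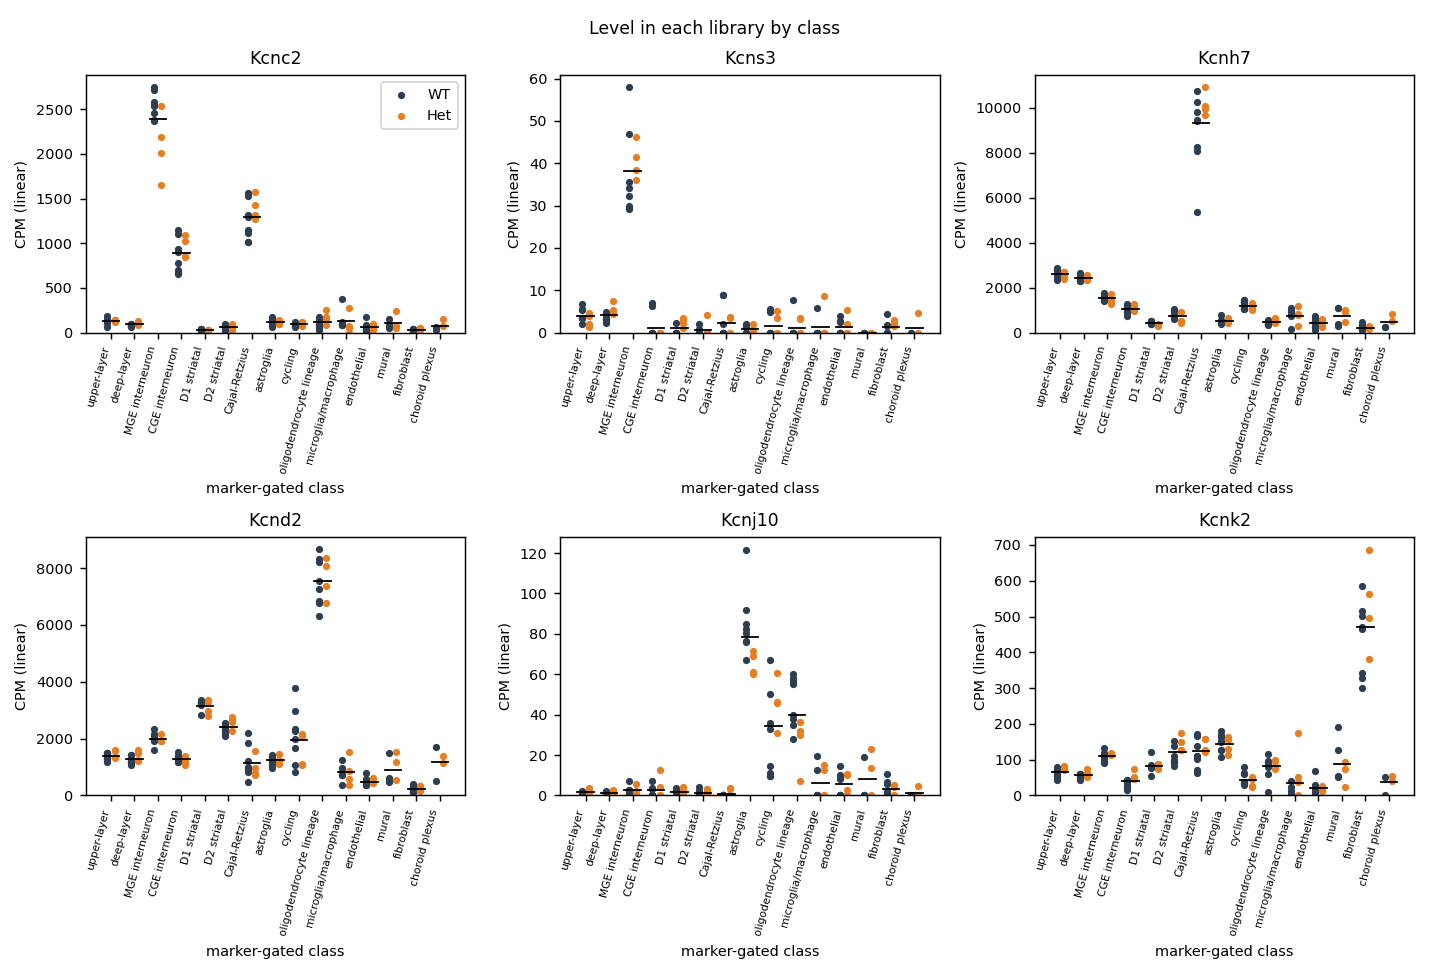
Level in CPM (vertical axis, linear) of Kcnc2, Kcns3, Kcnh7, Kcnd2, Kcnj10 and Kcnk2 in each gated class (horizontal axis), with 1 point per library (dark for WT, orange for Het) and a dash at the mean. The MGE-gated values of Kcnc2 and Kcns3, the Cajal-Retzius values of Kcnh7 and the oligodendrocyte lineage values of Kcnd2 lie above those of the other classes.

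Of the 8 genes placed in the calcium- and sodium-activated group, Kcnma1, Kcnn2, Kcnn3, Kcnt1 and Kcnt2 had UMIs in all 15 classes. Kcnn1, Kcnn4 and Kcnu1, the last placed there by symbol only, were at 0 CPM in at least 1 class. Kcnma1, the large-conductance (BK) pore, was level between deep-layer (959 ± 45.2 CPM) and upper-layer nuclei (950 ± 96.8). Kcnmb2, an auxiliary subunit that inactivates BK channels, was highest in MGE-gated nuclei at 748 to 1212 CPM, above every upper-layer library (456 to 600). The genes with the profile most like that of Kcnmb2 were Kcnj3 (r = 0.899), C230057M02Rik (0.888) and Nrg3 (0.882). Kcnn2 was level between MGE-gated (302 ± 17.6 CPM) and CGE-gated nuclei (300 ± 58.3), and Kcnn3, another small-conductance gene, was highest in astroglia (133 ± 18.9). The sodium-activated Kcnt2 was highest in fibroblasts (569 ± 110 CPM), within the range of CGE-gated nuclei (529 ± 80.7), and Kcnt1 in D1-gated nuclei (80.0 ± 20.1). Of the auxiliary genes, Kcnip4 lay at 8171 ± 2299 CPM in Cajal-Retzius, 6097 ± 780 in upper-layer and 5214 ± 893 in deep-layer nuclei, Kcnip1 at 702 ± 198 in Cajal-Retzius and 600 ± 66.6 in CGE-gated nuclei, and Kcnab1, a Kv1 beta subunit, at 567 ± 81.8 in D1-gated and 528 ± 122 in D2-gated nuclei.

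Kcnip4 was also the most counted Kcn gene in endothelial (727 ± 267 CPM), fibroblast (836 ± 317), microglia/macrophage (1496 ± 1089) and mural nuclei (1613 ± 570). In those classes the 11 excitatory markers summed to 366 ± 163, 258 ± 109, 617 ± 348 and 532 ± 394 CPM, against 3339 ± 389 in upper-layer nuclei. Neuronal RNA free in the suspension and RNA of the gated nuclei were not separated, and the part of either in these Kcnip4 values was not tested.

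Pairs of classes were then compared gene by gene with edgeR's quasi-likelihood test, using the sums of each library and a term for the library. A gene was called at an adjusted p (Benjamini-Hochberg, over all genes tested) under 0.05 and a log2 fold of at least 1. The genes of the marker lists were left out of these tests. The folds include edgeR's scaling between sums (TMM), which the CPM values do not, so a fold can differ from the ratio of CPM values. The deeper sums are those of the neuronal and astroglia classes, while the vascular ones tested few genes.

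Between excitatory and GABAergic interneuron nuclei, 18 of 52 tested Kcn genes were called, 11 higher in excitatory nuclei and 7 higher in interneurons, against 8.85% of all genes tested (4.48% higher and 4.38% lower). Kcnc2 was lower in excitatory nuclei by a log2 of -4.25 (SE 0.10, edgeR adjusted p = 2.69e-19), and with it Kcnip1 (-2.97, SE 0.06), Kcns3 (-2.83, SE 0.09), Kcnip2 (-1.87), Kcnc1 (-1.07), Kcnd3 (-1.02) and Kcnk13 (-1.89). Interneurons thus held more of both Kv3 genes named here and of 2 of the Kcnip auxiliaries. Kcnip1 lay at 417 to 634 CPM in interneurons and 50.7 to 80.1 in excitatory nuclei. On the excitatory side stood Kcng1, a modifier (2.36, SE 0.26), the inward rectifier Kcnj2 (2.19, SE 0.27), Kcna1 (2.09, SE 0.22), the leak channel Kcnk9 (2.01, SE 0.09), Kcnn1 (1.65), Kcnv1 (1.61), Kcnip4 (1.58), Kcnh5 (1.47), Kcnmb4 (1.13), Kcnh1 (1.08) and Kcnq5 (1.01). The first 3 of these were sparse, with 5.14 to 12.7 CPM of Kcng1 in excitatory nuclei and 0 to 4.57 in interneurons. Median depth differed between these classes, at 2699 UMIs per WT excitatory nucleus and 2117 per WT interneuron, and its part was not tested.

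Between MGE-gated and CGE-gated interneurons, 9 of 32 tested Kcn genes were called, against 6.69% of all genes (4.42% higher and 2.27% lower). Kcns3 was higher in MGE-gated nuclei by a log2 of 4.95 (SE 0.38, adjusted p = 1.18e-12), a fitted value that rests on the 3 CGE-gated UMIs given above. Kcnip2, an auxiliary of the Kv4 channels, was higher by 2.65 (SE 0.26), with 35.4 to 79.4 CPM in MGE-gated and 0 to 25.8 in CGE-gated nuclei. Kcnc2 (1.41, SE 0.08), Kcnk2 (1.4), Kcnmb2 (1.30), Kcnma1 (1.19), Kcnq3 (1.07) and Kcnh4 (1.04) were higher as well, so that the BK pore gene and its inactivating subunit differed in the same direction. Kcnt2 alone was lower, by -1.06 (SE 0.08), with 204 to 313 CPM in MGE-gated and 432 to 704 in CGE-gated nuclei. Its fold lay under the limit with doublets kept or with no filter on low counts, where its direction was the same.

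Between upper-layer and deep-layer nuclei, 5 of 47 tested Kcn genes were called, against 3.73% of all genes (1.04% higher and 2.69% lower). Kcnh5, an ether-a-go-go (Eag-type) subunit, was higher in upper-layer nuclei (1.30, SE 0.06, adjusted p = 1.76e-15), with 183 to 373 CPM against 76.1 to 131 in deep-layer nuclei. Kcnab1 was lower (-1.65, SE 0.09), with 82.5 to 158 CPM against 251 to 396, and so were Kcnip3 (-1.62, SE 0.09), Kcng1 (-1.13, SE 0.12) and Kcnk1 (-1.05, SE 0.11). Kcnip3, a calcium sensor of the Kcnip family, lay at 8.07 to 18.7 CPM in upper-layer and 33.4 to 56.2 in deep-layer nuclei. The libraries of both layers did not overlap for Kcnh5, Kcnab1 and Kcnip3, and overlapped for Kcng1 and Kcnk1.

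D1-gated and D2-gated nuclei differed in 2 of 29 tested Kcn genes (3.34% of all genes were called, 1.59% higher and 1.75% lower in D1-gated nuclei). Kcnj3 was lower in D1-gated nuclei (-1.15, SE 0.14, adjusted p = 5.44e-08), at 23.7 to 64.1 CPM against 40.1 to 215. Kcnc2 was lower too (-1.02, SE 0.16), at 12.2 to 38.1 CPM against 18.5 to 98.2. The ranges overlapped in both genes, and the Kcnc2 fold fell under the limit with DESeq2 or with no filter. The excitatory markers were also lower in D1-gated nuclei, at 227 ± 68.7 CPM (129.5 to 360.1) against 358 ± 112 (138 to 543), and their part in these values was not tested. WT 4 was absent from this comparison.

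Between astroglia and excitatory nuclei, 29 of 46 tested Kcn genes were called, against 31.9% of all genes. Only 3 were higher in astroglia (14.7% of all genes were), namely Kcnj10 (5.27, SE 0.18, adjusted p = 1.43e-16), Kcna2 (2.33, SE 0.14) and Kcnip3 (2.19, SE 0.11). Kcnj6 was not among them, though its mean CPM was 147 in astroglia and 65.0 in upper-layer nuclei, the next class. Kcnip3 lay at 104 to 234 CPM in astroglia and 20.1 to 41.2 in excitatory nuclei, and Kcna2 at 17.2 to 45.0 and 3.30 to 6.78. The other 26 were lower (17.2% of all genes were), led by Kcnmb2 (-3.35, SE 0.14), Kcnq5 (-3.34, SE 0.15) and Kcnh1 (-3.32, SE 0.13). They included Kcnma1 (-3.02), Kcnh7 (-2.64), Kcnip4 (-2.62) and Kcnb2 (-2.38). Kcnq5 was at 131 to 720 CPM in astroglia and 2253 to 2906 in excitatory nuclei. Median depth was 1407 UMIs per astroglia nucleus.

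Against the oligodendrocyte lineage, astroglia differed in 13 of 28 tested Kcn genes (18.4% of all genes were called, 9.75% higher and 8.63% lower). The small-conductance gene Kcnn3 (2.10, SE 0.15) and Kcnj6 (2.09, SE 0.17) were higher in astroglia, and Kcnn3 lay at 103 to 161 CPM there and 9.71 to 48.6 in the oligodendrocyte lineage. No other Kcn gene was called higher in astroglia here, Kcnj10 included. Kcnh8 (-3.08, SE 0.13), Kcnd2 (-2.78, SE 0.06, adjusted p = 2.21e-25) and Kcnma1 (-1.83, SE 0.09) led the 11 that were lower. Kcnh8, an Elk-type subunit, had 16.6 to 46.5 CPM in astroglia and 145 to 300 in the oligodendrocyte lineage, without overlap.

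Between mural and endothelial nuclei, 9 Kcn genes could be tested over 7 libraries (4 WT and 3 Het) and 4 were called, against 22.3% of all genes (9.33% higher in mural nuclei). All 4 were higher in mural nuclei, Kcnt2 by 1.64 (SE 0.28, adjusted p = 6.86e-05), Kcnmb2 by 1.24 (SE 0.31), Kcnip4 by 1.16 (SE 0.18) and Kcnq5 by 1.09 (SE 0.16). Kcnt2 lay at 178 to 525 CPM in mural and 60.4 to 207 in endothelial nuclei. The excitatory markers summed to 162 to 1103 CPM in mural and 102 to 728 in endothelial nuclei, and their part in these values was not tested. The fold of Kcnip4 was under the limit in WT libraries alone, under stricter gates, with doublets kept and with no filter, and that of Kcnmb2 with no filter.

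**Figure D3:**
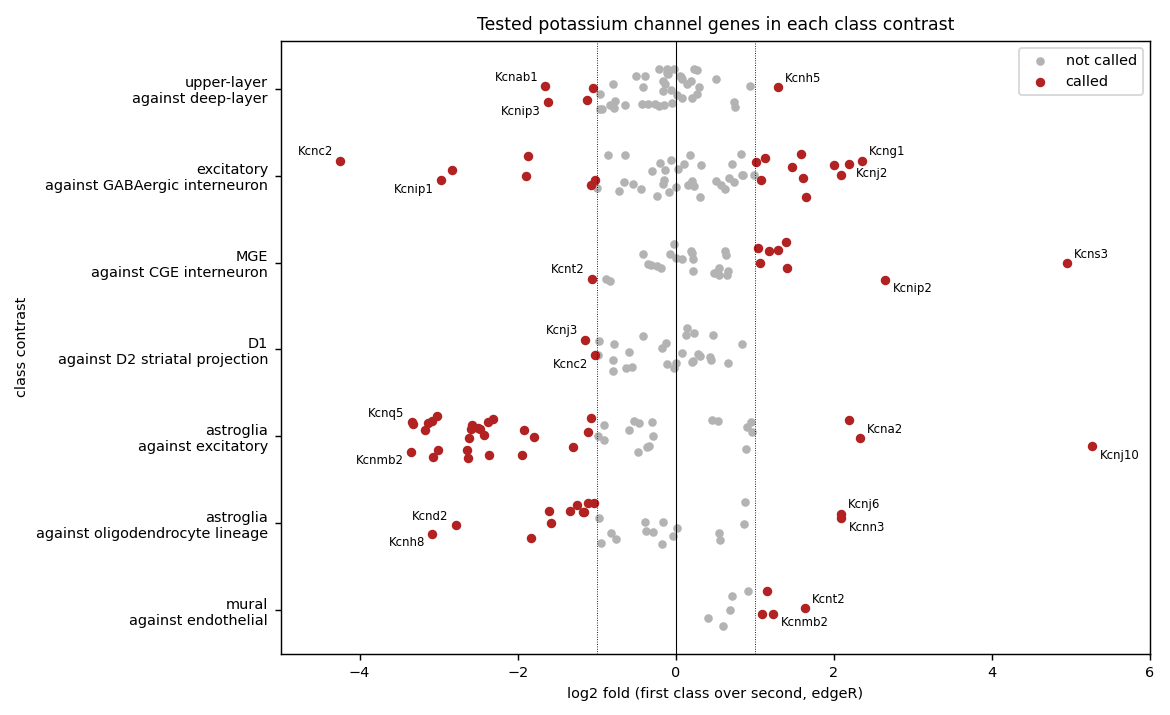
Log2 fold (horizontal axis) of every tested potassium channel gene in 7 comparisons of gated classes (vertical axis), where a positive value is higher in the class named first, points are spread vertically for legibility only, and red points passed an adjusted p under 0.05 and a log2 fold of at least 1. The called genes of upper-layer against deep-layer nuclei number 5, and those of astroglia against excitatory nuclei 29.

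The 23 partner genes outside the symbol rule (Hcn channels, sulphonylurea receptors, Dpp and Lrrc auxiliaries, scaffolds, Lgi1 and its receptors, and calmodulins) give the setting of the same channels. Between excitatory nuclei and interneurons 4 of 18 tested partners were called (8.85% of all genes), with the contactin gene Cntn2 (1.85) and Dpp10 (1.11) higher and Dpp6 (-1.60) and Cntnap2 (-1.55) lower in excitatory nuclei. Dpp6 and Dpp10 both encode auxiliary subunits of the Kv4 channels and stood on opposite sides. In upper-layer against deep-layer nuclei 3 of 18 were called (3.73% of all genes), all lower, namely Lgi1 (-1.87), Dpp10 (-1.77) and Lrrc55 (-1.002). Cntnap2 (1.15) was the only partner of 13 called between MGE-gated and CGE-gated nuclei (6.69% of all genes), and Dpp10 (-2.13) the only one of 13 between D1-gated and D2-gated nuclei (3.34%). Against excitatory nuclei astroglia had 12 of 17 called (31.9% of all genes), all lower, with Dpp10 at -3.74, and against the oligodendrocyte lineage 4 of 10 (18.4%), all lower, with Dpp6 at -2.26. Between mural and endothelial nuclei 2 of 8 were called (22.3% of all genes), 1 higher in mural nuclei, the sulphonylurea receptor Abcc9 (2.03, SE 0.16), and 1 lower. In Het against WT libraries 0 of 20 tested partners were called in excitatory nuclei, while 6 had p under 0.05 before adjustment, 5 of them lower in Het, against 11.9% of all genes (6.4% lower). The counts in all nuclei were 0 of 20 and 3, all lower, against 10.8% (6.05% lower).

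To ask what loss of a functional Myt1l allele does to these genes in developing neurons, WT and Het libraries were compared. In this comparison a gene was called at an adjusted p under 0.05 and a log2 fold of at least 0.2. No Kcn gene was called by edgeR in all kept nuclei (77 tested, 0.0% of all genes called), in excitatory nuclei (63 tested, 0.0135% of all genes called) or in any of 14 classes (392 pairs of gene and class tested, 0.0282% of all such pairs called). DESeq2 called 0 in all nuclei (0.188% of all genes), 1 in excitatory nuclei (Kcna6, 0.303% of all genes) and 2 over the classes (0.102% of all pairs, Kcnmb2 in MGE-gated and Kcnh7 in D1-gated nuclei). Before adjustment edgeR gave p under 0.05 for 19 of the 77 genes in all nuclei, of which 4 were higher and 15 lower in Het, against 10.8% of all genes (4.74% higher and 6.05% lower). In excitatory nuclei it gave 20 of 63, 7 higher and 13 lower, against 11.9% (5.51% and 6.4%), and over the classes 54 of the 392 pairs, against 6.62%. The median log2 fold of the tested Kcn genes was -0.12 in all nuclei and -0.09 in excitatory nuclei, beside -0.0003 and -0.006 over all genes. Summed over the family, WT libraries had 15640 ± 986 CPM and Het libraries 14600 ± 607 over all nuclei, and 18350 ± 1116 and 17590 ± 907 in excitatory nuclei. Median depth was also lower in Het, at 1976 ± 117 UMIs per nucleus in WT and 1851 ± 104 in Het over all nuclei and 2699 ± 199 and 2463 ± 218 in excitatory nuclei, and its part was not tested.

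Mean class proportions differed between the genotypes, though the ranges of those given here overlapped and no proportion was tested. Excitatory nuclei were 28.5 ± 2.8% of kept nuclei in WT (n = 8) and 24.4 ± 0.9% in Het (n = 4), deep-layer nuclei were 45.1 ± 7.7% and 36.4 ± 10.2% of excitatory nuclei, and upper-layer nuclei 38.5 ± 7.2% and 47.7 ± 11.1%. Of kept nuclei, interneurons were 8.19 ± 1.30% in WT and 6.85 ± 0.22% in Het, and D1-gated nuclei 2.46 ± 1.12% and 4.08 ± 1.06%. Within excitatory nuclei 1 of 10 deep-layer markers and 8 of 9 upper-layer markers were higher on average in Het, with sums of 4173 to 7207 CPM in WT and 3714 to 6311 in Het for the former and 1843 to 2758 and 2224 to 3341 for the latter. All 12 astroglia markers were higher in Het excitatory nuclei, summing to 51.7 to 95.3 CPM in WT and 83.6 to 173 in Het. Of 10 features for the 9 GABAergic markers 9 were higher, with sums of 21.2 to 56.9 CPM in WT and 31.45 to 85.9 in Het. The remaining feature, 1 of those that share the symbol Dlx6os1, was at 0. Striatal projection markers had 5 of 10 higher, with sums of 1327 to 1677 CPM and 1224 to 1407. The part of these differences in the values of excitatory and of all nuclei was not tested, and fewer cells of a class and less RNA per cell cannot be told apart in sums over all nuclei.

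The gene with the smallest p in excitatory nuclei was Kcna6, a Kv1 subunit at chr6:126708329-126740674. WT libraries lay at 18.7 CPM (lowest), 21.8 (median) and 25.7 (highest), and Het libraries at 12.9, 16.2 and 18.6. The groups did not overlap, and the highest Het library was just under the lowest WT library. Kcna6, and Kcnh8 and Kcnmb2 below, were picked by tests on these same libraries, so a lack of overlap adds no support. The share of all genes whose groups do not overlap is not given here. The log2 fold was -0.47 (SE 0.11, edgeR adjusted p = 0.180), and DESeq2 gave -0.46 with an adjusted p of 0.0396. Kcna6 was higher in deep-layer than in upper-layer nuclei of WT libraries (28.6 ± 3.3 and 16.1 ± 1.9 CPM), and its fold was -0.51 (SE 0.13, adjusted p = 0.134) within deep-layer nuclei and -0.22 (SE 0.15, adjusted p = 0.668) within upper-layer nuclei. The difference between the folds of both layers was not tested. In MGE-gated interneurons the fold of Kcna6 was -0.05 (SE 0.18, adjusted p = 0.977).

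Kcnh8 went the other way. WT excitatory nuclei lay at 57.4, 67.2 and 84.5 CPM (lowest, median, highest) and Het at 85.5, 93.0 and 104, again without overlap. The log2 fold was 0.41 (SE 0.10, edgeR adjusted p = 0.205). Kcnh8 was called by edgeR with no filter on low counts (0.42, adjusted p = 0.0110) and without Het 4 (0.45, adjusted p = 0.0499). The replicate block was a fit with a term for sex and number, on WT 1, WT 2, WT 3, WT 6 and the Het libraries only. In that fit the fold of Kcnh8 was 0.26. In the reported fits of single classes it was 0.42 (SE 0.14) in upper-layer, 0.37 (SE 0.11) in deep-layer and 0.41 (SE 0.12) in MGE-gated nuclei, and 0.003 (SE 0.10) in D1-gated nuclei. None of these passed. The difference between these folds was not tested.

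Kcnip2, the Kv4 auxiliary that was higher in interneurons, lay at 8.84, 12.96 and 17.7 CPM in WT excitatory nuclei and 7.89, 8.99 and 10.8 in Het, with overlap (-0.57, SE 0.16, edgeR adjusted p = 0.235). In MGE-gated nuclei it ran from 41.7 to 79.4 CPM in WT and 35.4 to 52.5 in Het (-0.59, SE 0.16, adjusted p = 0.219). With no filter on low counts edgeR called Kcnip2 in excitatory (-0.57, adjusted p = 0.0341) and in MGE-gated nuclei (-0.59, adjusted p = 0.00269). With the replicate block its fold in excitatory nuclei was -0.35. The sparse Kcnk12, a leak channel, lay at 3.34, 6.14 and 7.79 CPM in WT and 3.15, 3.27 and 4.36 in Het (-0.71, SE 0.22, adjusted p = 0.270), from 358 UMIs in all. Kcnh3, an Elk-type subunit, lay at 2.76, 3.58 and 5.20 CPM in WT and 4.63, 5.55 and 6.99 in Het (0.58, SE 0.19, adjusted p = 0.274), and its fold was 0.25 with all deposited barcodes. Both pairs of ranges overlapped.

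**Figure D4:**
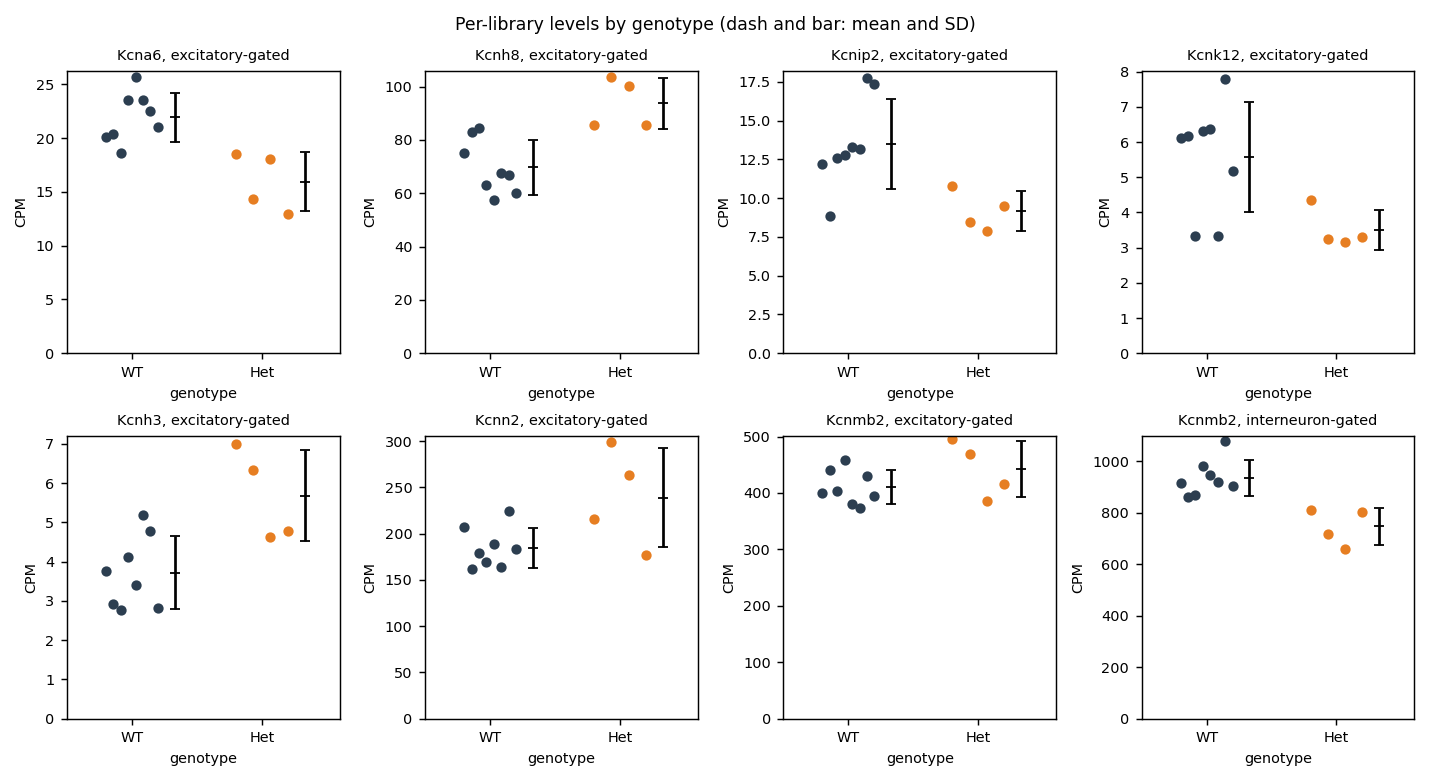
Level in CPM (vertical axis, 1 panel per gene) in WT and Het libraries (horizontal axis), with 1 point per library and a dash and bar for the mean and SD, for excitatory nuclei and, for Kcnmb2, also interneurons. The Het points of Kcna6 lie under those of WT, the Het points of Kcnh8 above, and the points of Kcnip2, Kcnk12 and Kcnh3 overlap.

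In all kept nuclei the smallest p belonged to Kcnd3, which lay at 156, 181 and 193 CPM in WT and 150, 157 and 166 in Het (-0.20, SE 0.06, edgeR adjusted p = 0.323). Kcnip4 lay at 3417, 3984 and 5344 CPM in WT and 2796, 3155 and 4051 in Het (-0.36, SE 0.12, adjusted p = 0.343). The leak channel Kcnk10 lay at 185, 201 and 219 CPM against 177, 182 and 189 (-0.16, SE 0.05, adjusted p = 0.343). The ranges of all 3 genes overlapped. Kcna6 (-0.29) and Kcnip2 (-0.40) complete the 5 smallest, both with an adjusted p of 0.343. Kcnip4 was also at -0.24 (SE 0.11, adjusted p = 0.396) within excitatory nuclei.

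The most counted pore genes of excitatory nuclei had small folds with narrow errors. Kcnh7 was at -0.04 (SE 0.07), Kcnq5 at -0.06 (SE 0.06), Kcnb2 at 0.04 (SE 0.05), Kcnma1 at -0.02 (SE 0.07), Kcnq3 at -0.01 (SE 0.08), Kcnt2 at 0.01 (SE 0.10) and Kcnj3 at -0.02 (SE 0.07). Kcnd2 was at 0.15 (SE 0.08), and its WT libraries of 1128 to 1463 CPM overlapped the Het libraries of 1293 to 1643. Kcnn2, a small-conductance gene, lay at 162, 181 and 224 CPM in WT and 177, 240 and 299 in Het (0.35, SE 0.12, adjusted p = 0.285). Without Het 4 it had a log2 fold of 0.47 and an adjusted p of 0.0279. It was also called in males only (0.50, edgeR adjusted p = 0.0304) and with no filter on low counts (0.36, edgeR adjusted p = 0.0491). In males only and with no filter Kcnn2 was called in upper-layer and in deep-layer nuclei too. Het 4 is the only female Het library. The fits without Het 4 and in males only thus share their Het libraries, also for Kcnh7 below. Kcnh7 was at -0.45 (SE 0.11, adjusted p = 0.253) in D1-gated nuclei, with 376 to 525 CPM in WT and 279 to 393 in Het. In D2-gated nuclei Kcnh7 was at -0.49 (SE 0.17, adjusted p = 0.475), with 610.0 to 1048 CPM in WT and 441 to 921 in Het, and was called there in males only (-0.81, adjusted p = 0.00382), with the replicate block (-0.61, adjusted p = 0.0245) and without Het 4 (-0.76, adjusted p = 0.0375). The difference between its folds in striatal and excitatory nuclei was not tested.

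**Figure D5:**
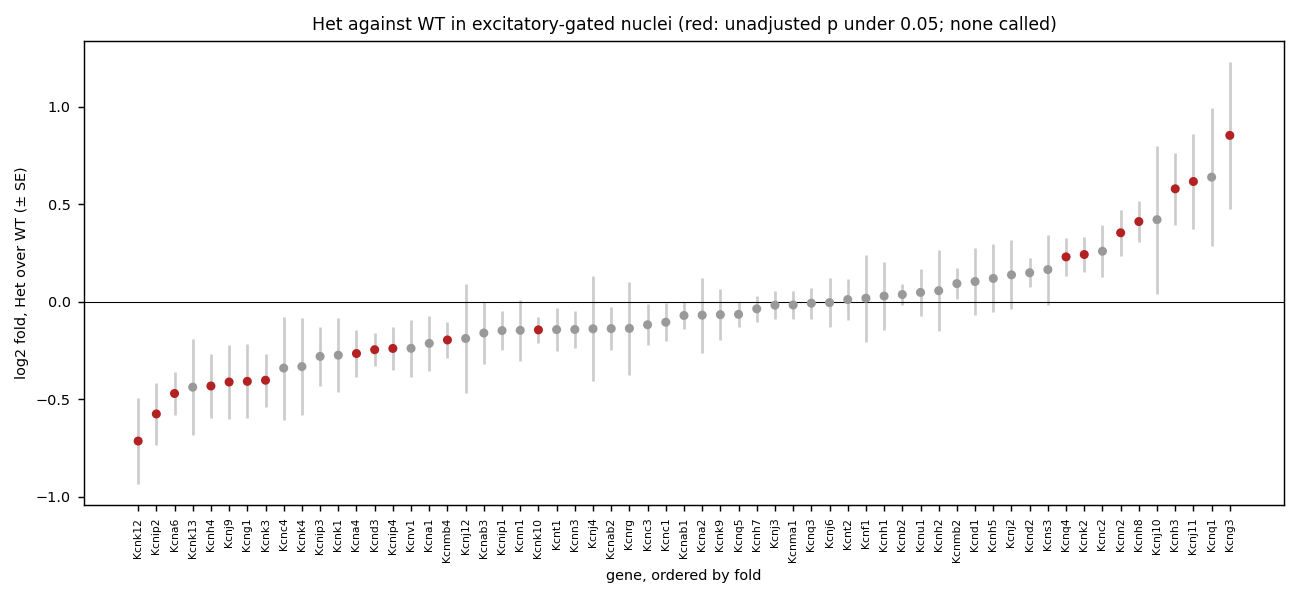
Log2 fold of Het against WT in excitatory nuclei with its standard error (vertical axis) for 61 of the 63 tested potassium channel genes (horizontal axis, ordered by fold), red where the unadjusted p was under 0.05. Kcnk12, Kcnip2 and Kcna6 are the 3 genes farthest below 0, Kcng3 is the farthest above it, and none passed the adjusted threshold.

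A term for the interaction asked whether the genotype difference itself differed between excitatory nuclei and interneurons, with both classes of every library in the fit. Of 60 tested Kcn genes 1 was called, Kcnmb2, against 0.0962% of all genes, and 9 had p under 0.05 before adjustment, against 7.69%. Kcnmb2 lay at 861, 917 and 1077 CPM in WT interneurons and 660, 760 and 810 in Het, without overlap. In excitatory nuclei it lay at 373, 402 and 458 CPM in WT and 386, 443 and 495 in Het, with overlap. The log2 fold in excitatory nuclei minus that in interneurons was 0.44 (SE 0.08, edgeR adjusted p = 0.0396). By itself the fold was -0.33 (SE 0.08, adjusted p = 0.136) in MGE-gated interneurons and 0.09 (SE 0.08, adjusted p = 0.678) in excitatory nuclei. The call was lost under stricter gates (0.43, adjusted p = 0.0558), with all deposited barcodes (0.39, adjusted p = 0.278) and without any 1 of 9 libraries, namely Het 1, Het 2, Het 3 and every WT library except WT 2 and WT 4, with an adjusted p of up to 0.302. MGE-gated nuclei were 79.6 ± 2.3% of WT and 78.4 ± 5.4% of Het interneurons, and Kcnmb2 was higher in MGE-gated than in CGE-gated nuclei. Within MGE-gated nuclei 9 of 11 excitatory markers were higher in Het, summing to 147 to 385 CPM in WT and 249 to 492.5 in Het. Cycling markers were higher for 8 of 9 (25.8 to 57.0 CPM in WT and 55.1 to 71.8 in Het), striatal projection markers for 8 of 10 (911 to 1442 and 1161 to 1439), astroglia markers for 8 of 12 (48.1 to 195 and 153.5 to 207) and CGE markers for 4 of 7 (837 to 1822 and 926.5 to 1319). The part of these markers in the Kcnmb2 value was not tested. Kcnc2 had a difference of 0.56 (SE 0.15, adjusted p = 0.190), from 2088 to 2447 CPM in WT interneurons and 1519 to 2336 in Het. The Kcnc2 difference passed under stricter gates (0.81, adjusted p = 0.00667), without Het 4 (0.77, adjusted p = 0.00255) and with no filter on low counts (0.57, adjusted p = 1.86e-09).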

How the data were processed

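Single-nucleus libraries from 12 animals were read as gene by nucleus matrices of expected counts, which the authors deposited per library after alignment and counting with the ScaleRna workflow, with no normalization. In 6.58 to 6.88% of entries per library a UMI had been divided among genes, and sums were rounded to whole counts before testing. Seurat 4.3.0 is named in the submitters' processing notes. No source used here states whether strand was used.

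A nucleus was kept with 300 to 3000 genes, 800 to 6000 UMIs, a mitochondrial share of at most 1% and a log ratio of genes over UMIs of at least 0.9. Doublets were marked by a nearest-neighbor score against simulated doublets (5% of barcodes in each library, 40 neighbors) and removed. A nucleus was gated when it had UMIs of at least 2 to 4 markers of 1 list, the minimum depending on the list, and, where several lists met their minimum, when 1 of them led by at least 2 markers. For interneurons the GABAergic list was counted together with the MGE or CGE list, whichever had more markers. At least 4 markers were needed in all, with at least 1 GABAergic and 2 MGE or CGE markers. The marker lists hold no Kcn gene, and gate thresholds were set after looking at marker values only. Classes with at least 20 nuclei in a library were summed per library, and CPM scales the sum to 1000000 UMIs of that class and library. Other columns of per-sample values numbered 0.

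Tests used edgeR 4.0.16 (quasi-likelihood, TMM, filterByExpr) in R 4.3.3 on all genes, with genotype as the only term between WT and Het and a library term between classes. DESeq2 1.42.0, other normalization, filters, gates, doublets kept, all barcodes, sex, males only, the replicate block and each library left out were alternatives. On simulated counts the excitatory comparison recovered 52.5% of genes changed by a log2 of 0.5 and 83.5% of those changed by 1. The class comparison of excitatory nuclei with interneurons recovered 100% at 1.5 and at 2. The simulated excitatory fit held 99 tested genes changed by 0.5 and 97 changed by 1, whereas the real fit called 2 genes. Recovery at other depths, numbers of animals or numbers of changed genes was not simulated.

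The symbol rule, gene roles, partner list and named genes were chosen with earlier results of these data known. Named genes were 29 members of a fixed list, the 2 members with the highest CPM per class, the 3 called members with the largest fold in each direction of each class comparison, called members of the genotype comparisons and the 5 with the smallest p in excitatory and in all nuclei. Results of a few genes are not reported here, and some of these genes are left out of the plots that label each gene. Genes of the called lists outside this rule were named after their values were seen. Gene coordinates and overlaps are from GENCODE M21 on GRCm38, matched by Ensembl ID without version (55154 of 55335 genes). Of the members, 43 overlap another gene, 17 on the same strand. Labels number males and females within each genotype. These numbers were checked for pairing, and the deviations of same-numbered libraries from their group means correlated at -0.05 to 0.13 over 12149 genes. No pairing was seen by this measure. Shared litters could not be checked, since the labels give none.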

Additional observations from a re-analysis of the deposited data

Results flagged for a closer look

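Of 24 groups of libraries checked for a library far from the others, 1 had such a library, about what chance gives, since the limit used is passed by about 1 group in 20. Kcnk12 in excitatory nuclei of Het 1 was at 4.36 CPM, the highest of the 4 Het libraries, the others of which lay close together from 3.15 CPM upward. All 4 values were within the range of the WT libraries or just under it.

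The genotype difference of Kcnmb2 differed between excitatory nuclei and interneurons by a log2 of 0.44 (SE 0.08, edgeR adjusted p = 0.0396), by a test of the interaction. Kcnmb2 was lower in the 4 Het libraries than in all WT libraries of interneurons, and Het and WT libraries overlapped in excitatory nuclei. Over 18 alternatives the value ran from 0.39 to 0.50 and the adjusted p from 1.8e-05 to 0.302, and 11 of the 18 lost the call.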

How the results depend on the processing

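Alternatives were run for the genes named by rule, which gave 30 values in the class comparisons, 10 in the genotype comparisons and 1 in the interaction. Their directions stayed the same, with 372 of 397 alternative values on the same side of the threshold, 20 weaker and 5 stronger. Folds of other genes in the text have no such list here. Of 122 counts of called genes under alternatives, 98 were equal to the reported count or within 1.5 times of it. These include genotype counts of 0 that stayed 0, where a ratio has no meaning. Under stricter gates the 1 interaction call was of Kcnc2 in place of Kcnmb2. The count of genotype calls over the classes, 0 as reported, was 2 with DESeq2, 12 with no filter on low counts, 5 in male libraries only and 2 with the replicate block (Kcnh7 in D2-gated and Kcnh5 in MGE-gated nuclei), which could be fitted in 13 classes. Calls over all genes rose as well, from 24 to 87, 918, 252 and 58. Leaving out 1 library gave 0 to 3, with 3 without Het 4, where calls over all genes were 310. In excitatory nuclei the count was 1 with DESeq2, 4 with no filter, 1 in males only and 0 with the replicate block, beside 45, 213, 177 and 0 over all genes, where the reported fit had 2. Leaving out 1 library gave 0 to 3, with 3 without Het 4, namely Kcnh8, Kcnn2 and Kcnmb4, the last chosen after its values were seen, beside 304 over all genes. In all nuclei it was 0 to 0 over the libraries left out. The count of interaction calls, 1 as reported, was 2 with no filter, 0 with all deposited barcodes, and 0 to 2 with 1 library left out, where 2 was without Het 4, beside 183, 1 and 148 over all genes (no filter, all barcodes, without Het 4) and 13 as reported. D1-gated against D2-gated nuclei, 2 as reported, gave 4 with no filter and 1 with DESeq2. Astroglia against excitatory nuclei, 29 as reported, gave 50 with no filter, where more genes were tested. The reported fits called 3.34% and 31.9% of all genes. The shares of all genes called in these alternatives are not given here, so the counts cannot be set against them. Other causes of the changed counts were not tested. No pairing was seen between libraries that share a number, and the replicate block changed no call of a Kcn gene in excitatory or in all nuclei. It moved some folds by over 1.5 times, in excitatory nuclei Kcnh8 from 0.41 to 0.26, Kcnip2 from -0.57 to -0.35 and Kcnk12 from -0.71 to -0.44, and in all nuclei Kcna6 from -0.29 to -0.15 and Kcnip2 from -0.40 to -0.22. The replicate block also left out the WT libraries with no Het library of the same sex and number. The part of this loss in its calls and folds was not tested. Simulated log2 changes of 0.5 were recovered in 52.5% of genes in excitatory nuclei, so differences of that size can be missed with these libraries.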
